A study of Homo sapiens with 17 samples.

Results

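The replication-dependent histone genes of human chromosome 6 lie in dense groups, and 2 windows that cover them, chr6:26016000-26300000 and chr6:27775000-27870000 in build hg19, were followed through 11 lists of protein-RNA contact sites. A deposited peak belonged to the windows when its midpoint fell inside either of them, on either strand. In all, 533 of 389788 peaks qualified, with 400 in the first window and 133 in the second. A library contributed 20 to 64 of them, between 0.0886% and 0.244% of its peaks.

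The sites came from eCLIP. In this assay RNA is crosslinked to bound protein by ultraviolet light, 1 protein is recovered with an antibody, and the RNA attached to it is sequenced. The cells were 293T, a human embryonic kidney line, plated without any other stated treatment and irradiated with 400 mJ/cm2 at 254 nm. The antibodies were against AIFM1, a mitochondrial flavoprotein; NUMA1, which organises spindle poles; RANGAP1, the activator of Ran GTP hydrolysis; RNF219, a RING-type ubiquitin ligase; vimentin (VIM), which builds intermediate filaments; and ZNF184, of the zinc finger family. There were 2 libraries for each of 5 proteins and 1 for RNF219, and each protein had 1 size-matched input, made from the same 75 kDa gel window without immunoprecipitation. That 1 input served both replicates, which therefore share its error, and nothing in the labels says whether they came from separate cultures.

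Replication-dependent histone genes are short, have no introns, and are transcribed mainly while DNA is copied. Their mRNAs end in a conserved stem-loop in place of a poly(A) tail. The stem-loop binding protein holds that structure, and the 3' end is cut with the help of the U7 small nuclear ribonucleoprotein. Many copies encode nearly the same protein, so reads from related genes can be hard to place. RefSeq, on assembly GRCh38.p14, lists 32 histone genes from H1-1 to H4C8 and 16 from H2BC13 to H2BC17. Of these 48 genes, 6 encode linker histone H1, 9 encode H2A, 12 encode H2B, 10 encode H3 and 11 encode H4, the core histones of the nucleosome. HFE, which regulates iron uptake, was the other protein-coding gene listed among them, and the ZNF184 gene itself lies between the last gene of the first group and the first gene of the second. The peaks are in hg19 coordinates and no annotation of that build was used here. The peaks were therefore grouped into loci by position and were not assigned to single histone genes or histone families.

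A locus was a run of peaks on 1 strand less than 400 nt apart, with the peaks of all libraries put together. There were 31 loci, 21 in the first window and 10 in the second, numbered here along the chromosome. They measured 28 to 718 nt, with a median of 395 nt, and 22 were at least 300 nt long. The peaks covered 1.83% of the positions in the windows, 3775 nt on the plus strand and 3171 nt on the minus strand. No position carried peaks on both strands (0 nt), so no locus had signal opposite to itself. In 6 places a minus-strand locus was followed by a plus-strand locus less than 500 nt away, at gaps of 277 to 385 nt, which is the layout of neighbouring genes read away from each other. Between the windows lay 370 further peaks of chromosome 6, which were not counted. The peaks themselves were short, with a median of 47 nt and a range of 3 to 172 nt.

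Many loci held peaks in most libraries, while single peak places recurred less often. Of the 31 loci, 9 held a peak in all 11 libraries, 17 in at least 9 libraries, and 3 in only 1 or 2 libraries. When overlapping peaks were merged, 99 regions remained. Of these, 8 had a peak in all 11 libraries, 14 had peaks from all 6 proteins and 33 came from a single library. The number of covered loci differed between libraries, from 12 to 28. A peak in these lists marks a place where reads accumulated, and only its fold over input says whether the antibody enriched it.

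Each peak carries the authors' log2 fold of eCLIP over input, corrected for depth, and a -log10 p for that difference. The members' folds differed between libraries. The median log2 fold of the members was 1.41 and 1.68 in the AIFM1 libraries (replicates 1 and 2 throughout) and 1.68 and 1.93 in the ZNF184 libraries. RNF219 followed with 1.17, RANGAP1 with 0.51 and 0.39, NUMA1 with 0.09 and 0.43, and VIM with 0.00 and -0.56. The 2 AIFM1 and 2 ZNF184 libraries had the 4 highest medians and the 2 VIM libraries the lowest, and NUMA1 and RANGAP1 overlapped. Values below 0 mean fewer eCLIP than input reads after correction for depth. Such peaks were 10 of 20 members in VIM replicate 1 and 86.4% in replicate 2. They made up 42.6% and 40.4% in NUMA1 and 25.0% and 21.0% in RANGAP1. The share was 13.3% in RNF219, 0% and 4.08% in AIFM1, and 0% and 4.92% in ZNF184. Over all other peaks of the same libraries this share lay between 7.42% and 21.7%.

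**Figure D1:**
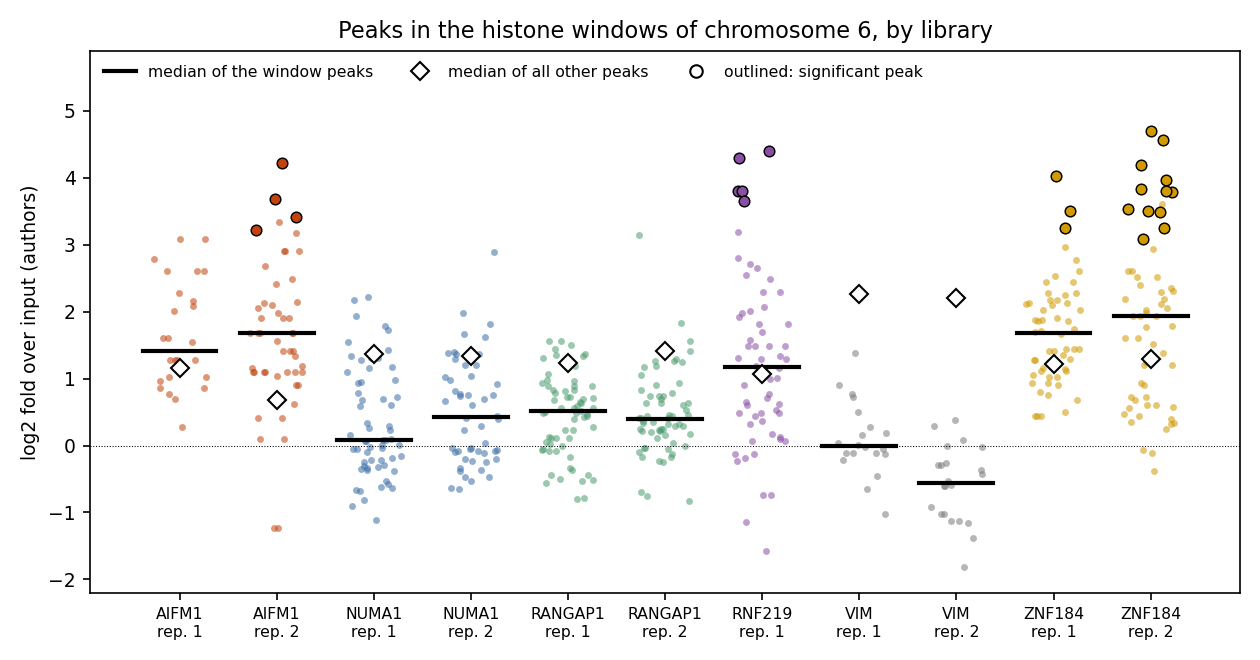
Authors' log2 fold over input (vertical axis) of each of the 533 window peaks, 1 point per peak and 1 column per eCLIP library, with the members' median and the median of all other peaks of the library marked. The members' medians run from -0.56 in VIM replicate 2 to 1.93 in ZNF184 replicate 2, and no VIM member lies above the median of that library's other peaks.

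The general level of a library differs, so the median of all other peaks was subtracted, giving a shift of the histone windows on the log2 scale. That reference median was lowest in AIFM1 replicate 2 (0.68) and highest in the VIM libraries (2.27 and 2.20), and the other 8 libraries lay between 1.07 and 1.42. The shift was 0.26 and 1.0 in AIFM1, 0.46 and 0.64 in ZNF184, and 0.10 in RNF219. It was -1.28 and -0.91 in NUMA1, -0.73 and -1.02 in RANGAP1, and -2.28 and -2.75 in VIM. The window peaks therefore stood above the rest of the library for AIFM1, ZNF184 and, narrowly, RNF219, and below it for NUMA1, RANGAP1 and VIM. In the second window alone the RNF219 shift was -0.08. With abutting peaks merged, that of AIFM1 replicate 1 was 0.0. In ZNF184, 39 of 56 and 39 of 61 members exceeded the median of the other peaks, in AIFM1 replicate 2 it was 42 of 49, and in VIM it was 0 of 20 and 0 of 22.

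The shift of each protein was set against that of the other libraries with a 2-sided exact permutation test of the difference of means, with Benjamini-Hochberg adjustment over the 6 proteins. With 2 of 11 libraries, 55 choices are possible and p cannot fall below 0.0182, and RNF219 with 1 library cannot fall below 0.0909. VIM averaged -2.52 ± 0.34 (SD, n = 2) against -0.17 ± 0.83 (n = 9), a difference of -2.35 at the smallest possible exact p of 0.0182, which was 0.109 after adjustment. For AIFM1 the mean was 0.63 ± 0.53 (SD, n = 2) and the difference 1.49 (exact p = 0.127, adjusted 0.382). For ZNF184 the mean was 0.55 ± 0.13 (SD, n = 2) and the difference 1.40 (exact p = 0.200, adjusted 0.400). NUMA1, RANGAP1 and RNF219 differed from the rest by -0.61, -0.35 and 0.76, with adjusted p = 0.764 for each of them in the same exact test. No protein passed 0.05 after adjustment.

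The window peaks were rich in input reads, and this moved with the shift. Read numbers were recovered from each fold and its p where 1 pair of whole numbers gave both. Elsewhere, as for most peaks below input, they are the least whole numbers that give the fold, and true numbers can be higher. Both were settled for 8 of 20 and 2 of 22 members in VIM, 32 of 61 and 30 of 52 in NUMA1, and 45 of 64 and 46 of 62 in RANGAP1. A minimum of input reads can therefore drop peaks below input whose true numbers would pass. The median member had 35.5 and 22.5 input reads in VIM, 31 and 37 in NUMA1, and 24 and 32 in RANGAP1, against 3 to 5 for other peaks of those libraries. It had 3 and 2 input reads in AIFM1, 4 in RNF219, and 9.5 and 11 in ZNF184, against 1 to 4 for their other peaks. When members and other peaks alike were limited to at least 10 input reads, the shift was -0.63 and -0.74 in VIM, -0.25 and -0.04 in NUMA1, 0.01 and -0.23 in RANGAP1, 1.12 in RNF219, and 0.62 and 0.69 in ZNF184. AIFM1 kept 1 member per library there and has no value. At 20 input reads the shift was 0.10 and 0.24 in NUMA1 and 0.35 and 0.27 in RANGAP1, so these 2 proteins changed sign, and it was -0.09 and -0.50 in VIM. With at least 10 reads VIM differed from the rest by -0.96 (exact permutation p = 0.0833, 36 choices, adjusted 0.185; 0.109 to 0.400 over all alternatives run). A minimum does not match members and other peaks in depth, and the values kept moving as it rose. The low shifts of VIM, NUMA1 and RANGAP1 rose at each higher minimum, that of RNF219 was larger than with none, and those of ZNF184 stayed between 0.39 and 0.81 at limits of 5, 10 and 20 input reads. What input depth contributes to the differences between proteins was not tested.

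**Figure D2:**
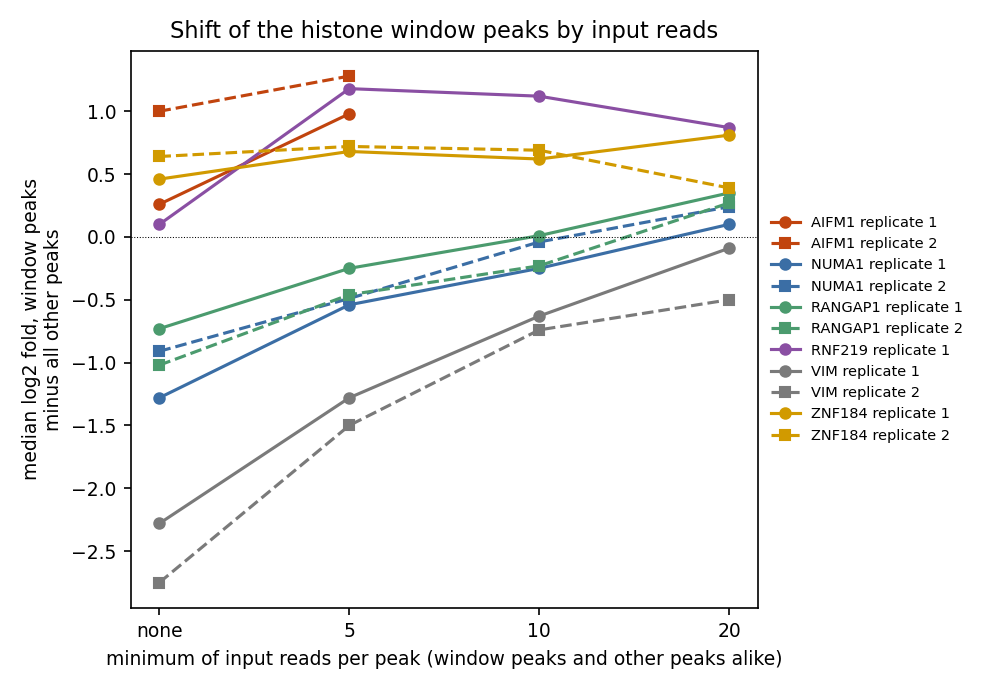
Shift of the window peaks (median log2 fold of members minus that of the other peaks of the library, vertical axis) at rising minimum numbers of input reads (horizontal axis), 1 line per eCLIP library. VIM rises from -2.28 and -2.75 with no minimum to -0.63 and -0.74 at 10 reads, RNF219 goes from 0.10 to 1.12, the ZNF184 lines stay above 0, and NUMA1 and RANGAP1 pass above 0 at 20 reads; AIFM1 has no value beyond 5 reads.

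A peak was called significant where its log2 fold reached 3, an 8-fold excess, and its -log10 p also reached 3. There were 24 such members, and they belonged to 3 of the 6 proteins. ZNF184 had 12 of 61 in replicate 2, which is 19.7% (95% Wilson interval 11.6 to 31.3) where 4.82% of all peaks of that library were called. It had 3 of 56 in replicate 1, or 5.36% (1.84 to 14.6) against 3.15% of all peaks, which lies inside the interval. RNF219 had 5 of 60, or 8.33% (3.61 to 18.1) against 0.926%. AIFM1 had 4 of 49 in replicate 2, or 8.16% (3.22 to 19.2) against 0.214%, and 0 of 26 in replicate 1, where 0.216% of all peaks were called. ZNF184 replicate 2 gave 12 of the 24 calls, and 12 remained without it. Members of 1 locus can be pieces of 1 bound stretch, so these intervals cover counting error only.

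NUMA1, RANGAP1 and VIM had no significant member. For NUMA1 that was 0 of 61 and 0 of 52, where 1.51% and 0.877% of all peaks were called. For RANGAP1 it was 0 of 64 and 0 of 62 beside 1.52% and 2.99% of all peaks. For VIM it was 0 of 20 and 0 of 22 beside 5.29% and 4.50%. A count of 0 allows shares of up to 4.92% and 5.77% in NUMA1, 4.69% and 4.84% in RANGAP1, and 15.0% and 13.6% in VIM, each above the share over all peaks. Depletion of significant peaks was therefore not detectable at this threshold and these numbers of members. The threshold also asks different read numbers of each library, since with 1 input read it needs at least 5 eCLIP reads in VIM replicate 1 and 23 in AIFM1 replicate 2. At a log2 fold of at least 2, RANGAP1 replicate 2 still had 0 of 62, where 6.96% of all peaks were called, above its limit of 4.84%. RANGAP1 replicate 1, NUMA1 replicate 2 and both VIM libraries had 0 there too. Their shares of all peaks, 4.28%, 2.17%, 7.26% and 5.93%, lay below their limits.

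ZNF184 had the only regions that were significant in both replicates of a protein. There were 2 in the windows, among 550 such regions of ZNF184 in the genome, and none for AIFM1, NUMA1, RANGAP1 or VIM, which had 13, 64, 341 and 171 genome-wide. The windows held only 0.0886% to 0.244% of a library's peaks. With totals of that size, having none sets these proteins apart from neither ZNF184 nor their own genome-wide share. The 2 ZNF184 regions are likewise a small count. The first, chr6:27775977-27776024 on the plus strand, forms the 5' edge of locus 23. Where a library had several peaks at a site, the highest is given. The log2 fold was 3.25 in ZNF184 replicate 1, from 14 eCLIP and 2 input reads, and 4.57 in replicate 2, from 31 and 2 reads. Exact 95% intervals from these reads were 1.13 to 6.43 and 2.59 to 7.67. At the same place AIFM1 had 2.09 and 1.10, RNF219 0.78, RANGAP1 0.28 and 0.36, and NUMA1 0.06 and -0.07, and VIM had no peak. Both ZNF184 values lay above those of the other 7 libraries with a peak there. This site and the next were chosen because both ZNF184 replicates passed the call, so their high rank follows in part from the choice. The interval of ZNF184 replicate 1 includes the AIFM1 value of 2.09.

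The second, chr6:27860882-27860927 on the minus strand, lies at the 5' end of locus 30. ZNF184 had log2 folds of 3.50 (25 and 3 reads, interval 1.79 to 5.88) and 3.83 (28 and 3 reads, 2.14 to 6.20). RANGAP1 had 0.49 and 0.44 there, and RNF219 had -0.13. AIFM1, NUMA1 and VIM had no peak at that position. Elsewhere in locus 30 ZNF184 replicate 2 had a further significant peak, chr6:27860479-27860512 at 4.70 from 17 eCLIP reads and 1 input read. In locus 21, at the far end of the first window, both ZNF184 replicates also had a significant peak, but at different places: chr6:26285539-26285567 at 4.03 in replicate 1 and chr6:26285356-26285383 at 4.2 in replicate 2. Each of these rested on 12 eCLIP reads and 1 input read.

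The remaining significant ZNF184 peaks came from replicate 2, and replicate 1 was lower at each of those given here, which were chosen after their values were seen. At chr6:26189243-26189292 in locus 12, on the minus strand, ZNF184 had 2.97 and 3.97. The other libraries with a peak there ran from -1.13 in VIM replicate 2 to 1.28 in AIFM1 replicate 1. At chr6:26104195-26104247 in locus 7, on the plus strand, every library had a peak. ZNF184 had 2.28 and 3.51 and AIFM1 had 2.60 and 2.90. RANGAP1 had 0.83 and 0.53, RNF219 0.44, NUMA1 0.15 and 0.03, and VIM -1.03 and -1.38. AIFM1 and ZNF184 did not separate from each other at this site, and both lay above the other 7 libraries.

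Locus 15, chr6:26204859-26205243 on the plus strand, held 5 of the 24 significant peaks, the most of any locus. At its 5' site, chr6:26204860-26204961, AIFM1 had log2 folds of 2.02 and 3.42 and ZNF184 had 1.86 and 3.54. NUMA1 had 1.34 and 1.29, RANGAP1 0.64 and 0.64, RNF219 0.61, and VIM replicate 2 -0.43, and VIM replicate 1 had no peak. The value of 3.54 came from 160 eCLIP and 21 input reads (interval 2.88 to 4.27), the largest read numbers behind any significant member. AIFM1 replicate 2 reached 3.42 on 60 eCLIP reads and 3 input reads (1.80 to 5.74). Near the 3' end of the locus, at chr6:26205106-26205184, AIFM1 replicate 2 had 3.68 and replicate 1 no peak. There ZNF184 had 1.69 and 3.24, RNF219 2.71, NUMA1 1.79 and 1.98, RANGAP1 0.49 and 0.45, and VIM 0.04 and 0.08. RNF219 was among the lowest at the first site, and its highest peak was among the higher ones at the second. That peak, chr6:26205170-26205242, extends past the second site. The other RNF219 peak overlapping the second site had 1.01, below the NUMA1 values of 1.79 and 1.98. The place of RNF219 in the order there thus depends on which peak is taken.

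AIFM1 replicate 2 had its highest window fold, 4.23, at chr6:26124517-26124575 on the plus strand in locus 9, from 35 eCLIP reads and 1 input read (1.65 to 9.57). AIFM1 replicate 1 had 2.78 there. ZNF184 had 1.29 and 1.61 at that site, and 2.10 and 3.81 at chr6:26124429-26124504, just upstream of it, where AIFM1 had 3.18 in replicate 2 and no peak in replicate 1. RNF219 and RANGAP1 went the same way as ZNF184. RNF219 had -1.58 at the AIFM1 site and 2.01 at the upstream site. RANGAP1 had 0.11 and 0.23 at the AIFM1 site and 0.83 and 1.18 at the upstream site. NUMA1 (2.23 and 1.81) and VIM replicate 2 (-0.03) had the same highest value at both sites. These 2 neighbouring sites were chosen after their values were seen.

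Across loci, the shift was averaged over libraries for the 17 loci with a peak in at least 9 of them. The highest means were 0.51 ± 1.25 (SD, n = 9) at locus 2, 0.03 ± 1.53 (n = 11) at locus 15, 0.01 ± 1.42 (n = 10) at locus 21, -0.05 ± 1.70 (n = 10) at locus 12, and -0.08 ± 0.82 (n = 9) at locus 3. The lowest were -1.07 ± 1.12 (n = 11) at locus 10, -1.05 ± 1.06 (n = 11) at locus 8, -1.02 ± 1.08 (n = 11) at locus 11, -0.72 ± 1.26 (n = 10) at locus 13, and -0.64 ± 0.97 (n = 11) at locus 6. Since each locus was measured in the same libraries, loci were also compared within libraries. Between neighbours in the order of all 17, the mean difference ran from -0.40 to 0.40 and was within 1 SD for each of the 16 pairs, so neighbours did not differ beyond their spread. The ends did separate. Locus 15 was higher than locus 10 in 11 of 11 libraries, by 1.11 ± 0.94 (SD), and locus 2 was higher than locus 10 in 9 of 9, by 1.19 ± 0.85. These pairs were chosen for their rank, so the counts are a description. With at least 10 input reads the means moved to 0.04 at locus 10 (n = 11), -0.20 at locus 8 (n = 8), -0.11 at locus 11 (n = 9), 0.76 at locus 15 (n = 9) and 0.67 at locus 3 (n = 6). The mean was 0.13 at locus 6 (n = 9) and -0.43 at locus 13 (n = 6), so loci 10 and 6 were no longer below 0. The means of loci 15, 21, 12 and 3 lay so near 0 that leaving out 1 library could turn their sign (-0.24 to 0.28, -0.20 to 0.26, -0.36 to 0.31 and -0.22 to 0.06). Loci 2 and 3 lack a peak in both VIM libraries, which were the lowest elsewhere, so their means leave out the low end.

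Most loci lay on the same side of 0 as the windows as a whole. Counting each locus in each library, the shift was above 0 in 33 of 42 values for AIFM1, 37 of 53 for ZNF184, 15 of 25 for RNF219, 8 of 51 for NUMA1, 2 of 53 for RANGAP1 and 0 of 25 for VIM. A VIM library was lowest at 8 of these 10 loci, the exceptions being loci 2 and 3. At locus 2, chr6:26021931-26022262 on the plus strand, the median log2 fold was 3.09 and 3.01 in AIFM1, 2.49 in RNF219, 1.45 and 2.52 in ZNF184, 1.19 and 0.64 in RANGAP1, and 0.71 and 0.29 in NUMA1. Both AIFM1 values lay above all 7 others, although none of these peaks reached the p needed for a call. At locus 10, chr6:26156611-26157328 on the plus strand, the longest locus and one with 43 peaks, AIFM1 had 1.23 and 1.23 and ZNF184 0.93 and 0.09. RANGAP1 had 0.72 and 0.62, RNF219 0.43, NUMA1 -0.10 and -0.48, and VIM -0.13 and -1.10. AIFM1 was highest there in both replicates and VIM replicate 2 lowest.

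**Figure D3:**
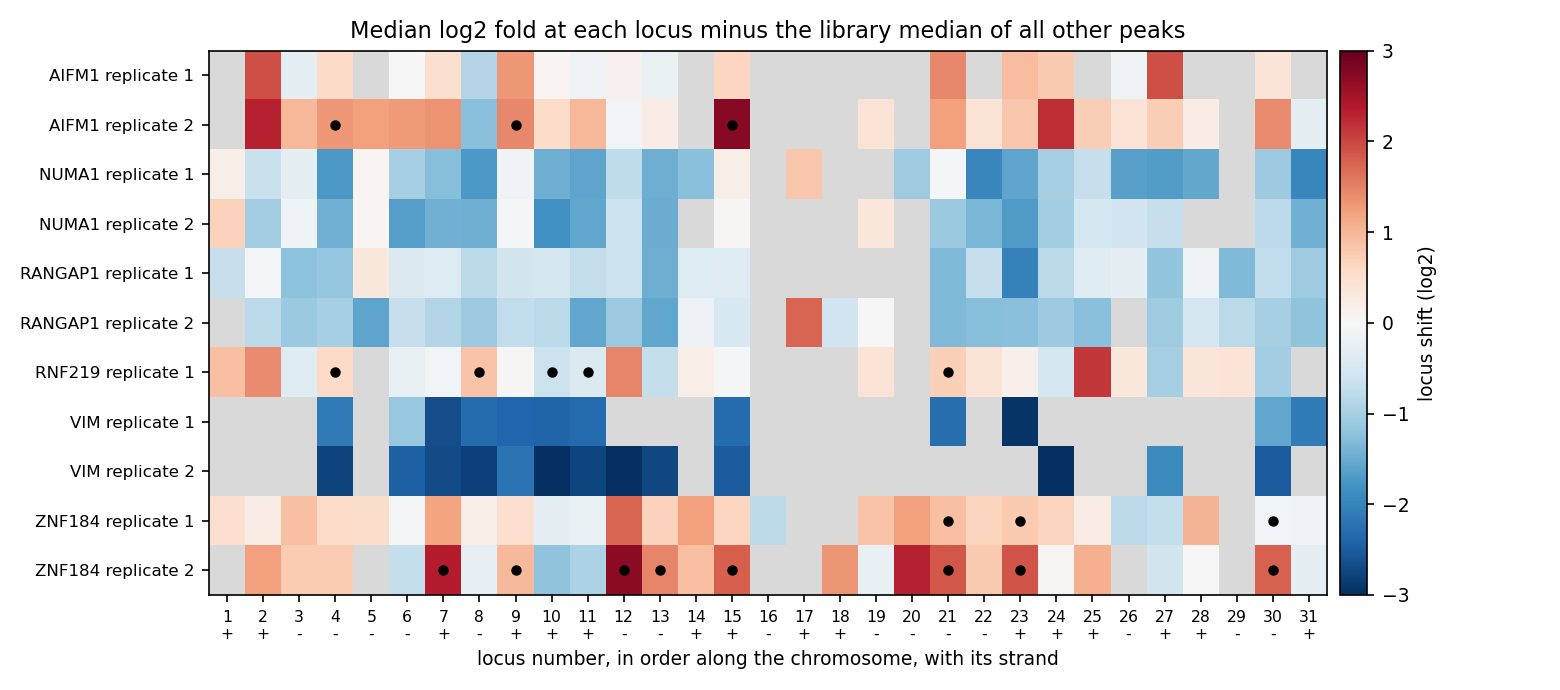
Shift of each locus (columns, numbered along the chromosome, with strand) in each eCLIP library (rows), as the median log2 fold of its peaks minus the median of the library's other peaks; colour gives the shift, grey cells have no peak, and dots mark a significant peak. AIFM1 is above 0 in 33 of its 42 cells and ZNF184 in 37 of 53, and VIM is below 0 in all of its 25 cells.

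RNF219 differed from the other libraries in where along a locus its enriched peaks lay. This was noticed in the data and is given as a description with no test. Among the 22 loci of at least 300 nt, 19 of its 54 peaks (35.2%) had their midpoint in the final 20% of the locus, toward the 3' end in the direction of the strand. The other libraries had 1 to 11 peaks there, or 3.77% to 20%. The loci were bounded with RNF219 included, which moved the 3' edge outward at 11 loci and can lower the shares of the others. The median log2 fold of those 19 RNF219 peaks was 2.07, and that of its other 35 was 0.53. The difference of 1.55 compares with -0.88 to 0.67 in the other 10 libraries. In 13 of the 15 loci where RNF219 had peaks in both parts, the 3' part was the higher, by a median of 1.58.

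The RNF219 peaks at the 3' end rested on fewer reads. Their median was 8 eCLIP and 2 input reads, against 18 and 8 for the other 35 peaks. All 19 were above input, and 17 lay above the median of the library's other peaks, which held for 11 of the 35 others. Among peaks with at least 3 input reads, 6 of 35 (17.1%) lay in the final part, a share inside that of the other libraries (4.0% to 20.5%), so the excess of peaks at the 3' end was lost there. The difference in fold was 1.15 under that limit, against -0.90 to 0.67 in the others. Part of the 3' boundary is drawn by RNF219 itself. When the loci were bounded by the other 10 libraries, 17 of 48 RNF219 peaks (35.4%) lay in the final part or past its 3' edge, with a difference in fold of 1.21. Peaks past the edge were counted with the final part. This count therefore still includes the stretches that only RNF219 reached. For the other libraries no bounds without RNF219 were drawn, so their shares and fold differences under such bounds are not known. What the lower read numbers contribute was not tested.

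Of the 5 significant RNF219 peaks, 4 formed the 3' edge of their locus. They passed the 3' limit of the other 10 libraries by 80, 157, 212 and 3 nt, in the order given next. They were chr6:26158781-26158833 in locus 11 at 4.39 (30 eCLIP reads and 1 input read, interval 1.81 to 9.75), chr6:26031828-26031849 in locus 4 at 4.30 (28 and 1 reads, 1.70 to 9.65), chr6:26157297-26157328 in locus 10 at 3.81 (40 and 2 reads, 1.86 to 6.90) and chr6:26123697-26123753 in locus 8 at 3.81 (20 and 1 reads, 1.17 to 9.18). Loci 4 and 8 are on the minus strand, so their 3' edge is the lower coordinate. In loci 4, 10 and 11 no other library had a peak in the final 20%. The RNF219 peak itself lengthened these loci, and their final 20% lay wholly or nearly so in the added stretch. That absence therefore follows from how the loci were bounded. The median RNF219 fold in the rest of the locus was 0.13 in locus 11, 1.31 in locus 4, 0.33 in locus 10 and 1.20 in locus 8. The 4 peaks were chosen by their call, so that they are higher follows from the choice, and the interval at locus 8 includes the value of its body. The fifth significant peak, chr6:26285478-26285576 in locus 21 at 3.66 (18 and 1 reads, 0.99 to 9.04), lay inside its locus.

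Weaker RNF219 peaks were placed alike. It had 2.71 (28 and 3 reads) within 1 nt of the 3' edge of locus 15, 2.55 (25 and 3 reads) at the edge of locus 12, and 1.58 (47 and 11 reads) at the edge of locus 9. Locus 2 had 2.49 and locus 26 had 2.30, on 8 and 7 eCLIP reads with 1 input read each. The exceptions to the higher 3' part were locus 1, with 1.30 at the 3' end against 2.66 before it, and locus 21, whose 2 peaks there had 2.30 and 0.07 against 2.48. Edges were also drawn for each library by the other 10. RNF219 then came within 10 nt of the 3' edge or passed it at 16 of 21 loci. The other libraries did so at 0 to 7, but their edges include RNF219, which had moved the 3' edge outward at 11 loci. Their lower counts follow in part from this, so the 2 figures are not measured alike. At the 5' edge RNF219 did so at 13 loci, within the 3 to 14 of the others.

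At 11 loci an RNF219 peak went past the 3' limit of all other libraries, by a median of 88 nt and at most 212 nt. The log2 folds of these 11 peaks ran from 1.49 to 4.39, with a median of 2.49. ZNF184 did the same at 5 loci in replicate 1, by a median of 4 nt and at most 45 nt, and at 2 loci in replicate 2, by 32.5 nt and at most 60 nt. NUMA1 replicate 1 and RANGAP1 replicate 1 passed the limit at 2 loci and 1 locus, by at most 5 nt, and the other 6 libraries at none. For these libraries the limit includes RNF219 and, where a protein has 2 libraries, the other replicate, which RNF219 lacks. ZNF184 replicate 2 also had 3 of its 10 significant peaks in these loci in the final 20%, with a median there 0.51 higher than in the rest, and VIM replicate 2 had the largest difference after RNF219 (0.67), from 1 peak. RNF219 has 1 library, so its 3' placement has no replicate check.

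**Figure D4:**
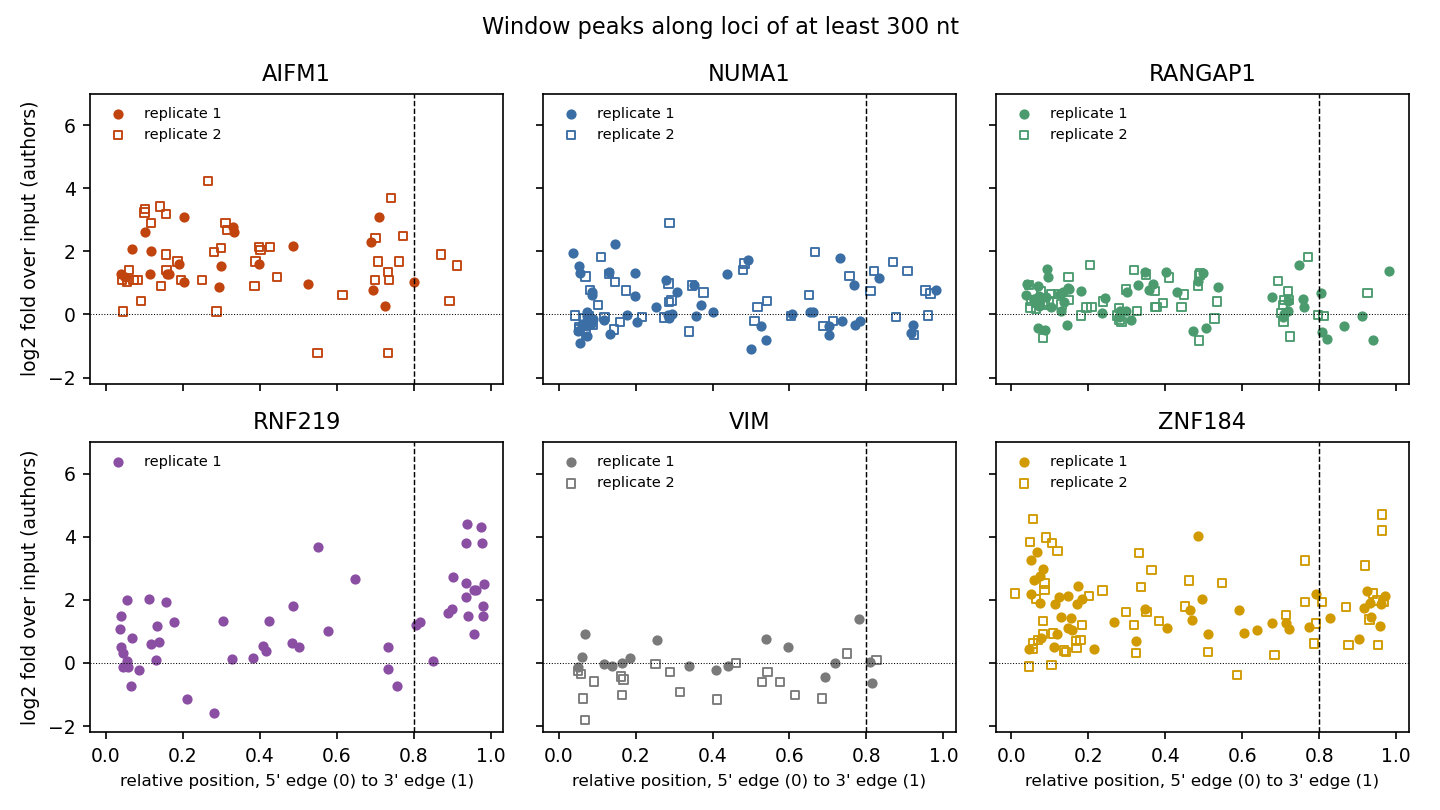
Authors' log2 fold over input (vertical axis) against the position of each peak's midpoint in its locus (horizontal axis, 0 at the 5' edge and 1 at the 3' edge in the direction of the strand), for loci of at least 300 nt, with 1 point per peak, 1 panel per protein, replicates 1 and 2 as filled circles and open squares, and a dashed line at the start of the final 20%. In RNF219 19 of 54 peaks lie in the final 20%, with a median of 2.07 against 0.53 before it.

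Averaged over libraries, strand made no difference beyond the spread between them. The plus strand held 305 peaks in 16 loci and the minus strand 228 in 15. The median log2 fold on the plus strand minus that on the minus strand averaged 0.12 ± 0.45 (SD, n = 11 libraries), and the plus strand was higher in 6 of 11 (2-sided exact sign-flip permutation test, p = 0.400). With replicates averaged to 1 value per protein it was 0.09 ± 0.42 (SD, n = 6), higher in 3 of 6 (exact permutation p = 0.688). Both replicates of a protein had the same sign. The value was above 0 in AIFM1 (1.0 and 0.5), NUMA1 (0.02 and 0.62) and RANGAP1 (0.31 and 0.14). It was below 0 in RNF219 (-0.30), VIM (-0.55 and -0.12) and ZNF184 (-0.04 and -0.23). Opposite signs cancel in these tests, so they cannot show a strand difference that varies by protein, which was not tested.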

How the data were processed

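Per the submitters' processing notes, reads were handled with cutadapt, STAR, GATK, Picard and SAMtools on hg19; for versions, peak caller, duplicate removal and multiply mapping reads, nothing is given in the sources used here. The authors deposited 1 peak list per eCLIP library and none for pooled replicates. Its columns hold a deposited -log10 p, which is 0 for most peaks below input and stops at 400, and a deposited log2 fold over the size-matched input; these meanings come from the values.

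Every fold was a depth constant times a ratio of whole reads, and reads were recovered where the p matched within 0.005, otherwise as least whole numbers. All 533 members passed, since no low-value filter was used. Shifts, locus medians and exact permutation tests were computed in Python 3.11.15 (numpy 2.4.6, pandas 2.3.3, scipy 1.17.1) with the libraries as replicates, and the code was tested on simulated data. Intervals for single folds are exact (Clopper-Pearson, 95%), and intervals and limits (3 counts for a 0) cover counting error only. By rule, loci are named where significant in both replicates of a protein or in RNF219, or among the 5 highest and 5 lowest means; loci 1, 7, 9 and 26 were named after their values were seen. Sense against antisense, histone families and sequences need an hg19 annotation or genome and are not analysed here. Members, loci and tests were chosen with earlier results of these data known.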

Additional observations from a re-analysis of the deposited data

Results flagged for a closer look

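These differences between proteins were picked because both replicates of 1 protein lay above 0 and both of another lay below it. The difference was not tested for any of them. Values are shifts on the log2 scale, and each difference is between the means of 2 replicates. Over all window peaks, AIFM1 had 0.26 and 1.0 and VIM -2.28 and -2.75, a difference of 3.14. At locus 2 AIFM1 had 1.93 and 2.33 and NUMA1 -0.66 and -1.05, a difference of 2.99. At locus 15 AIFM1 had 0.65 and 2.74 and VIM -2.31 and -2.49, a difference of 4.09. At locus 10 AIFM1 had 0.07 and 0.55 and VIM -2.41 and -3.29, a difference of 3.16.

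ZNF184 and RANGAP1 lay on opposite sides at 4 loci. The difference was 3.07 at locus 12 (1.75 and 2.68 against -0.65 and -1.08) and 2.71 at locus 21 (0.90 and 1.86 against -1.32 and -1.33). It was 2.59 at locus 13 (0.68 and 1.47 against -1.46 and -1.57) and 2.00 at locus 3 (0.90 and 0.77 against -1.22 and -1.12). The proteins compared were the highest and lowest with 2 replicates at that locus, and the loci are those ranked by mean shift, so large differences are what this choice looks for.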

How the results depend on the processing

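The sign of each protein's shift against the other libraries was kept under every alternative run (mean for median, other peaks of chromosome 6, each window alone, merged regions, input-read minimums, each library left out), except that RANGAP1 turned to 0.05 at 20 input reads. AIFM1 has no value at 10 or 20 input reads. Leaving out 1 library gave 1.12 to 1.86 for AIFM1, -0.90 to -0.43 for NUMA1, -0.63 to -0.16 for RANGAP1, 0.53 to 0.95 for RNF219, -2.59 to -2.11 for VIM and 1.16 to 1.63 for ZNF184. Replicate numbers come from the titles and replicate 1 was the higher in 2 of 5 proteins, so they share only a number; with the replicate block the differences were 1.5, -0.61, -0.35, 0.82, -2.35 and 1.40 in that order, and VIM had an exact permutation p of 0.0333 (adjusted 0.200, and 0.109 to 0.400 over its alternatives).

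Counts of significant members moved with the threshold, and they are given with the share of all peaks of the library in parentheses. At a log2 fold of at least 4 they were 1 in AIFM1 replicate 2 (0.082%), 2 in RNF219 (0.361%), and 1 (1.06%) and 3 (2.12%) in ZNF184. At a log2 fold of at least 2 they were 1 (0.465%) and 6 (0.511%) in AIFM1, 1 in NUMA1 replicate 1 (4.17%), 7 in RNF219 (1.78%), and 15 (6.79%) and 20 (8.08%) in ZNF184. At a -log10 p of at least 5 they were 2 in AIFM1 replicate 2 (0.161%), 3 in RNF219 (0.666%), and 1 (1.57%) and 11 (3.0%) in ZNF184. Libraries not listed had 0. At a log2 fold of at least 2 these were NUMA1 replicate 2 (2.17%), RANGAP1 (4.28% and 6.96%) and VIM (7.26% and 5.93%). Their shares of all peaks ran from 0.108% to 3.2% at a log2 fold of at least 4. At a -log10 p of at least 5 they ran from 0.158% to 2.14%. The total was 12 to 24 when 1 library was left out. Regions significant in both replicates numbered 0, 9 and 1 in ZNF184 at those 3 thresholds in turn, and 1 in AIFM1 at a log2 fold of at least 2. No genome-wide count at these 3 thresholds stands beside them, so they do not show whether the windows exceed the rest. The RNF219 difference between the final part and the rest ranged from 1.13 to 1.68 over 6 alternatives chosen after seeing the data. Alternatives that need an hg19 annotation (transcribed strand only, exons widened by 100 nt) were not run. Below about 10 input reads, single folds have wide intervals.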
